A study of Mus musculus with 20 samples.

Results

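The enzymes that couple glutathione, glucuronic acid or sulfate to other molecules were followed in mouse kidney through the genes whose names begin with Gst (alpha, kappa, mu, omega, pi, theta and zeta classes), Ugt or Sult on a 1-colour Agilent mouse array. The members were chosen by gene name alone and were 46 of 27827 gene names, read by 60 of 41174 probes. They comprised 20 Gst genes (26 probes), 15 Ugt genes (21 probes) and 11 Sult genes (13 probes). Total kidney RNA of male C57BL/6 mice, 8 to 12 weeks old, was measured in 5 groups of 4 arrays. Control mice received neither surgery nor drug. In the IRI group, blood flow to the kidneys was stopped for 45 min under anesthesia, and the kidneys were taken 6 h after it was restored. IPC+IRI mice had an additional ischemia of 15 min 7 days before the same procedure. IRI+Hemin mice were given Hemin, an inducer of heme oxygenase 1, at 25 mg/kg into the peritoneum 24 h before it, and Hemin mice were given the drug without surgery. Control and Hemin mice were not operated on, so anesthesia and incision also separated them from the ischemic groups. The labels number the arrays of a group as replicates and do not say whether each came from 1 animal, so the p-values measure the spread between these arrays.

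Conjugation makes reactive or fat-soluble compounds easier to excrete. Glutathione transferases (Gst) add the thiol of glutathione to electrophiles, UDP-glucuronosyltransferases (Ugt) add glucuronic acid from UDP-glucuronate, and cytosolic sulfotransferases (Sult) add sulfate from the donor PAPS. The kidney carries many of these enzymes in the proximal tubule, which also takes up and secretes their products.

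Log2 expression is given here as log2 of the processed spot signal, averaged over the probes of a gene, relative to the 75th percentile of its own array, so that 0 marks that percentile. Levels were compared between groups for the same gene. A gene was tested where at least 3 of 4 arrays of a compared group were well above background, and it was called where the adjusted p of limma was below 0.05. Of the 46 members, 32 were well above background on all 20 arrays and 2, Sult6b1 and Ugt1a9, on none. In all, 40 members were tested in at least 1 comparison, and Sult3a1, Sult6b1, Ugt1a1, Ugt1a9, Ugt2b1 and Ugt2b35 were tested in none. Across the series, 57.4% to 67.4% of genes were well above background per array, and arrays of a group correlated at 0.975 to 0.995 across genes, which are not independent replicates. No slide held arrays of more than 1 group, and differences between slides cannot be told apart from those between groups. The file headers place Control with IRI on the same scan day, Hemin with IPC+IRI on a later one, and the IRI+Hemin arrays on a day of their own. Only IRI vs Control and IPC+IRI vs Hemin were therefore made within 1 scan day, and in the other comparisons scan day and group cannot be told apart.

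The probe sequences below show the stretch of each transcript that was read, and how far close relatives can be separated. Gsta1 and Gsta2, near-identical alpha-class transferases, were the only pair among the 60 probes with a long matching stretch: capitals mark 28 bases of which 27 are identical. Coordinates are those of the array files (mm9), and letters run 5′ to 3′.
Gsta1 (chr9:78083844-78087325, plus strand, spanning 3482 bases and thus an intron): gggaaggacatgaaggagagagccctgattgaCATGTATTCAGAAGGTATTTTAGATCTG
Gsta2 (chr9:78181644-78181703, minus strand): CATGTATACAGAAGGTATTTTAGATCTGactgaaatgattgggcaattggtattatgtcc
The next 3 probes read the members with the largest changes among the mu, omega and Ugt2 genes described below.
Gstm5 (chr3:107701101-107701160, plus strand): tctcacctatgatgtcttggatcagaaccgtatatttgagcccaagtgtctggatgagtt
Gsto2 (chr19:47960590-47960649, plus strand): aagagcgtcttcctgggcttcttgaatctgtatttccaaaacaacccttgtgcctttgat
Ugt2b36 (chr5:87495455-87509913, minus strand, spanning 14459 bases and thus an intron): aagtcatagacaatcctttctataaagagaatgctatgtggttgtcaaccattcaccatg

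Over the 6 comparisons and the interaction of Hemin and IRI, the Gst and Sult families changed in both directions, while no Ugt gene was called higher in the fit to all 20 arrays. With arrays left unscaled, 4 Ugt genes were higher and 0 lower in Hemin vs Control and 1 was higher in IPC+IRI vs Control, and with quantile normalization, or with the compared arrays fitted alone, 1 was higher in Hemin vs Control. Without scaling, the median of all genes moved from 0.055 to 0.622 in Hemin vs Control and from -0.11 to 0.35 in IPC+IRI vs Control, so the changes below are relative to the 75th percentile of each array. Of 10 Ugt genes tested, 4 (40%) fell in IRI vs Control, against 35% of all genes. In IPC+IRI vs Control 8 (80%) fell, against 33.8%, in IPC+IRI vs IRI 6 (60%), against 17.9%, and in IRI+Hemin vs IRI 6 (60%), against 18.4%. Of 11 tested, 3 (27.3%) fell in Hemin vs Control, against 17.6%, and 6 (54.5%) in IPC+IRI vs Hemin, against 24.4%. The latter include Ugt2a1, tested through the Hemin arrays alone. Among genes well above background in both groups 5 of 10 Ugt genes (50%) fell there, against 23.4%. Without scaling the Ugt falls in these 6 comparisons, in the same order, numbered 1, 1, 0, 1, 0 and 5, and with normexp, another background correction, 2, 6, 3, 6, 1 and 2. Genes tested numbered 17719, 18352, 17668, 17835, 18579 and 18544. Of these, 3396, 2056, 605, 620, 491 and 3064 fell without scaling. With normexp 1491, 3246, 2468, 3453, 1713 and 1517 fell. These comparisons share arrays and are not independent counts. In tissue RNA, fewer cells of a type and less RNA per cell cannot be told apart.

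**Figure D1:**
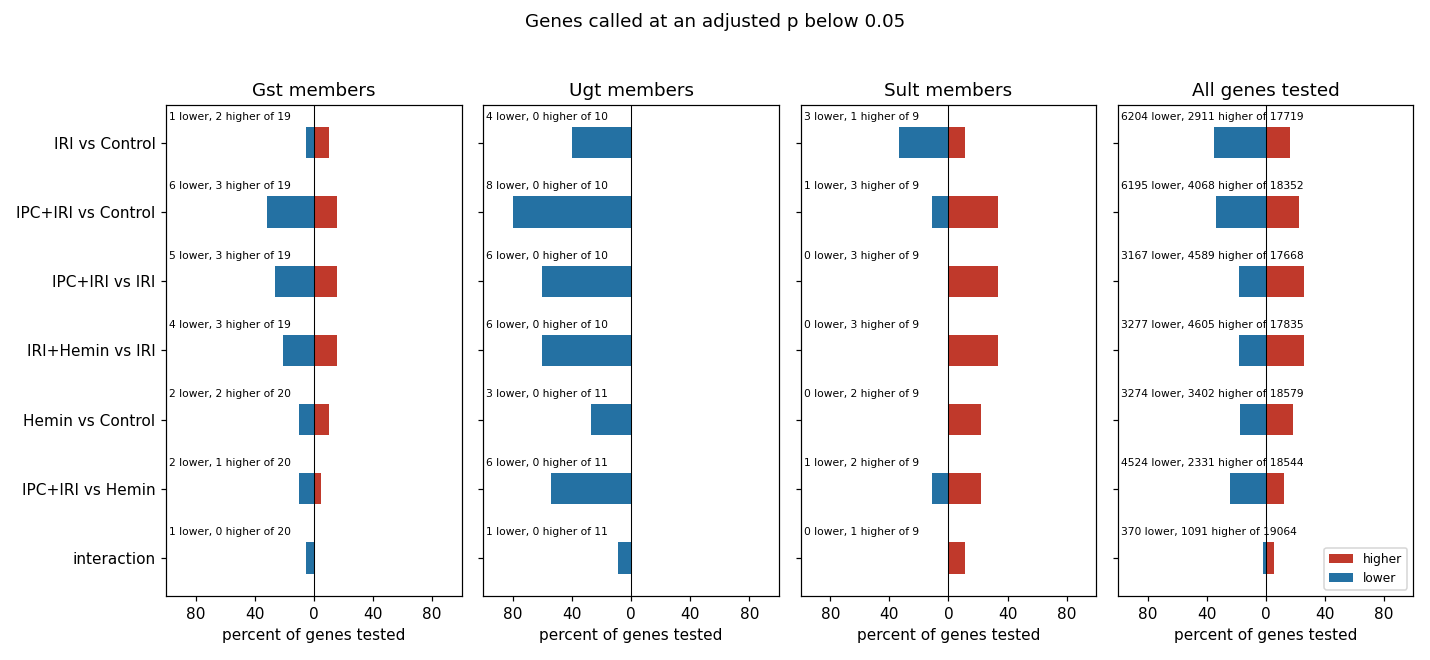
Percent of genes tested that were called higher (right, red) or lower (left, blue) at an adjusted p below 0.05, for the Gst, Ugt and Sult members and all genes, in each comparison; the text in each row gives the counts. The Ugt panel has bars on the lower side only, reaching 8 of 10 genes in IPC+IRI vs Control; with arrays left unscaled, 1 gene was lower there and 4 Ugt genes were higher in Hemin vs Control.

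**Figure D2:**
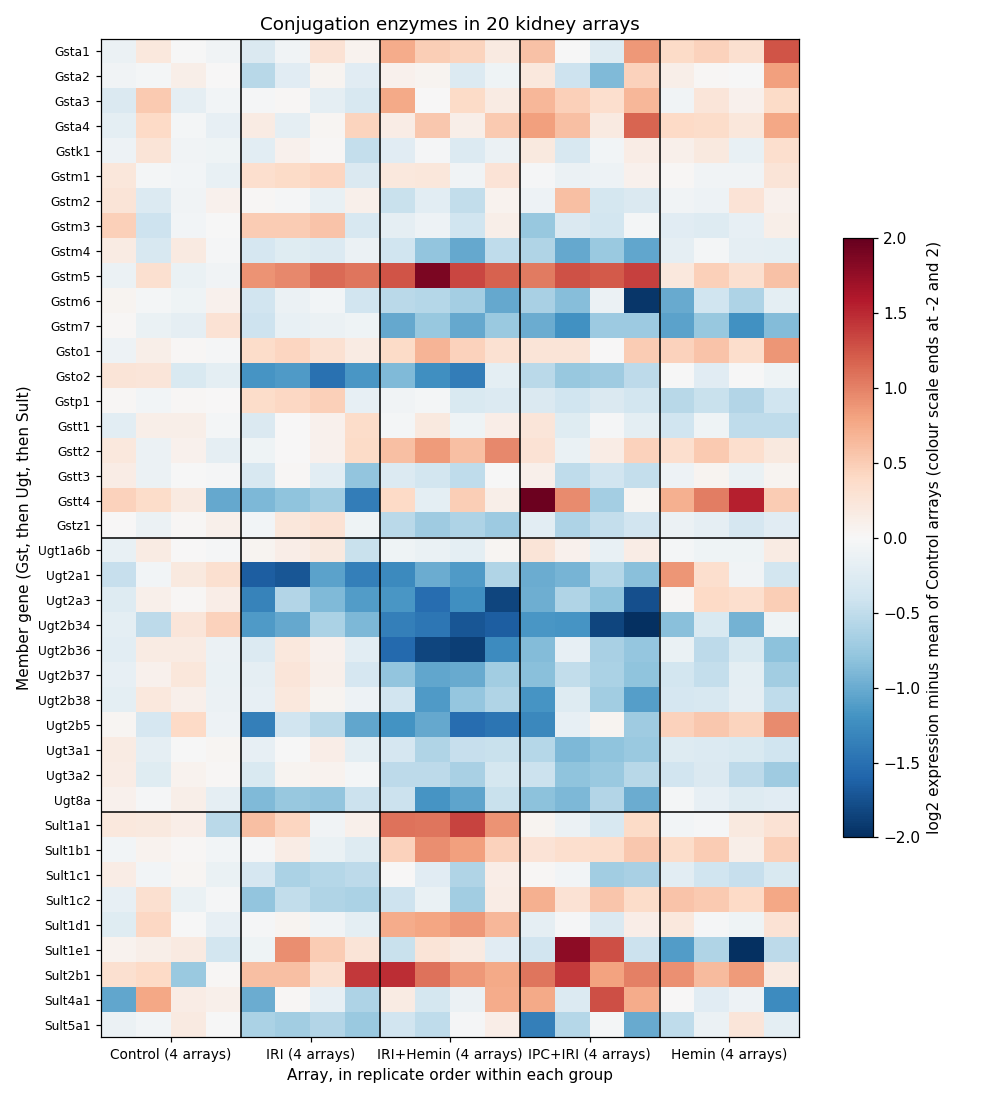
Log2 expression of the 40 tested members in each of the 20 arrays, minus the mean of the 4 Control arrays (colour, cut at -2 and 2), with lines between groups and between the Gst, Ugt and Sult families. Gstm5 is higher in the ischemic groups, and most Ugt2 rows are lower there, relative to the 75th percentile of each array.

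The IRI vs Control comparison asked what ischemia and reperfusion changed, and was made within 1 scan day. Among 38 members tested, 3 rose and 8 fell, that is 7.89% and 21.1%, against 16.4% higher and 35% lower over all 17719 genes tested. Both shares lay below those of all genes, and the median log2 difference was -0.054 for the members and -0.194 for all genes. Of these, 1 rise and 1 fall reached 2-fold, against 5.79% and 14.9% of all genes. The clearest rise was that of Gstm5, a mu-class glutathione transferase. Gstm5 had log2 expression of 3.43, 3.87, 3.41 and 3.47 in Control and 4.44, 4.50, 4.69 and 4.61 in IRI, and all IRI arrays were above all Control arrays. Its log2 difference was 1.01 (SE 0.15, adjusted p = 2.24e-05), a 2.02-fold rise. Gsto1, an omega-class enzyme that reduces dehydroascorbate and arsenic compounds, was at 3.07, 3.29, 3.20 and 3.15 in Control and 3.54, 3.61, 3.49 and 3.35 in IRI. Its arrays did not overlap between the groups, with a log2 difference of 0.32 (SE 0.13, adjusted p = 0.044), a call lost in 10 of 16 alternative settings, among them leaving out any array of the pair of groups except Control array 2 or IRI array 4. Its neighbour Gsto2 went the other way. Gsto2 was at -1.97, -1.99, -2.54 and -2.42 in Control and -3.40, -3.37, -3.72 and -3.39 in IRI, with every IRI array below every Control array. The log2 difference was -1.24 (SE 0.20, adjusted p = 5.62e-05), but with normexp background correction it was -0.26 (adjusted p = 0.434). The second Gsto2 probe was at background on all arrays.

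The Ugt genes that fell in IRI were 3 of the Ugt2 family, whose members glucuronidate steroids, bile acids and drugs, and Ugt8a, which transfers galactose to ceramide in the synthesis of myelin-type and renal galactolipids. Ugt2b34 was at -0.80, -1.14, -0.36 and -0.15 in Control and -1.75, -1.63, -1.24 and -1.51 in IRI, without overlap (log2 difference -0.92, SE 0.24, adjusted p = 0.00367). Ugt8a was at 0.09, -0.02, 0.12 and -0.18 in Control and -0.89, -0.76, -0.79 and -0.42 in IRI, also without overlap (log2 difference -0.72, SE 0.16, adjusted p = 0.00117). Without scaling neither was called, Ugt2b34 at -0.78 (adjusted p = 0.064) and Ugt8a at -0.58 (adjusted p = 0.0899), and Ugt8a was not called in the deposited log2 matrix either (-1.02, adjusted p = 0.0806). Ugt2a3 was at -3.42, -3.06, -3.14 and -3.02 in Control and -4.50, -3.75, -4.04 and -4.27 in IRI, a log2 difference of -0.98 (adjusted p = 0.00115). Ugt2b5 was at -2.98, -3.37, -2.63 and -3.12 in Control and -4.39, -3.41, -3.57 and -4.07 in IRI, a log2 difference of -0.83 (adjusted p = 0.0124). The groups did not overlap for either gene, but these are dim probes, and with normexp the differences were -0.04 (adjusted p = 0.945) and -0.01 (adjusted p = 0.993). With quantile normalization neither was called, and the Ugt2b5 call was also lost without scaling and without the first IRI array.

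The Ugt genes Ugt2b36, Ugt2b37, Ugt2b38, Ugt3a1 and Ugt3a2 did not pass the test in IRI vs Control. Their 95% intervals of the log2 difference were -0.44 to 0.34 for Ugt2b36, -0.35 to 0.27 for Ugt2b37 and -0.40 to 0.40 for Ugt2b38. Ugt3a2, an enzyme that uses sugars other than glucuronic acid, had an interval of -0.32 to 0.21.

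Among sulfotransferases, Sult1c2, Sult1c1 and Sult5a1 fell in IRI. Sult1c2, of the phenol-conjugating SULT1 family, was at 3.45, 3.93, 3.47 and 3.58 in Control and 2.81, 3.11, 3.01 and 2.97 in IRI, without overlap (log2 difference -0.63, SE 0.16, adjusted p = 0.00307). Sult5a1 changed by -0.66 (adjusted p = 0.0183) and Sult1c1 by -0.51 (adjusted p = 0.0168), both without overlap. With normexp, without scaling and with quantile normalization neither of these was called, while the Sult1c2 call held in every alternative. In IPC+IRI vs Hemin, the other comparison within a scan day, Sult1c2 was not called, with means of 4.08 and 4.17. Sult2b1, which sulfates cholesterol and other hydroxysteroids, was not well above background on any Control array and was well above it on 3 of 4 IRI arrays. It was at least 1.66-fold higher in IRI (adjusted p = 0.0261), with overlapping arrays, and this bound equals the fitted fold. The Sult2b1 call was lost with normexp, without scaling, with the compared arrays fitted alone and without Control array 3, and the gene was not tested without IRI array 1, 2 or 4. Sult2b1 was tested through the IRI arrays alone, and over the 37 members well above background in both groups 2 rose and 8 fell (5.41% and 21.6%), against 17.1% and 30.7% of such genes.

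Proximal tubule and leukocyte markers were read on the same arrays. The log2 of the summed signal of 10 proximal tubule markers, a sum in which the brightest markers weigh most, ranged from 9.301 to 9.416 in Control and from 8.971 to 9.509 in IRI, and 3 of the 10 were lower in IRI, namely the endocytic receptors Lrp2 (-0.97) and Cubn (-0.56) and the lactate carrier Slc5a12 (-1.69). The same quantity for 9 leukocyte markers ranged from 0.347 to 0.623 in Control and from 1.978 to 3.188 in IRI, with S100a8, S100a9 and Cd68 called higher and the B-cell gene Cd79a lower. The part of these cells in the values of the conjugation enzymes was not tested.

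IPC+IRI vs Hemin, the other comparison within 1 scan day, set ischemic against unoperated kidneys on arrays that IRI vs Control did not use. It was not a comparison of the study, and the groups differ by preconditioning, ischemia and Hemin together. Of 40 members tested, 3 rose and 9 fell (7.5% and 22.5%), against 12.6% and 24.4% of all genes. At 2-fold or more, 2 rose and 4 fell, against 5.09% and 5.73%. The 2 rises were Sult1e1 (1.63, adjusted p = 0.00616) and Sult4a1 (1.02, adjusted p = 0.0478). Both calls were lost with normexp. That of Sult4a1 was also lost without scaling, with the compared arrays fitted alone, with the replicate block and without Hemin array 2, 3 or 4 or IPC+IRI array 1, 3 or 4. Gstm5 again rose: it was at 4.58, 4.82, 4.77 and 4.92 in IPC+IRI and 3.76, 4.02, 3.86 and 4.13 in Hemin, without overlap (log2 difference 0.83, SE 0.15, adjusted p = 0.00035). Ugt2a3 was at -4.14, -3.77, -3.97 and -4.92 in IPC+IRI and -3.13, -2.76, -2.82 and -2.68 in Hemin, without overlap (log2 difference -1.35, SE 0.22, adjusted p = 0.000149). Ugt2b34 was at -1.78, -1.80, -2.45 and -2.65 in IPC+IRI and -1.45, -0.92, -1.56 and -0.71 in Hemin (log2 difference -1.01, SE 0.24, adjusted p = 0.00322). Every IPC+IRI array of Ugt2b34 was below every Hemin array, as was the case for Ugt2b5 (-1.13, adjusted p = 0.00273) and Ugt8a (-0.65, adjusted p = 0.00431). With normexp, Ugt2a3 changed by -0.36 and Ugt2b5 by -0.41, and neither was called. Ugt2a1 was not well above background on any IPC+IRI array and was at least 1.97-fold lower there than in Hemin (adjusted p = 0.00263), a call lost with normexp, and the gene was not tested without Hemin array 1, 2 or 3. Ugt2a1 was tested through the Hemin arrays alone and Sult1e1, one of the rises, through the IPC+IRI arrays alone. Over the 37 members well above background in both groups 2 rose and 8 fell (5.41% and 21.6%), against 12.4% and 23.4% of such genes, and 5 of 10 Ugt genes fell. Of the 12 calls in this comparison, 4 held with normexp, and among the Ugt genes these were Ugt2b34 and Ugt8a.

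Altogether 7 members were called in the same direction in both comparisons within a scan day and none in opposite directions. Of the 38 members tested in both, Gstm5 (2.63%) was higher in both, against 9.8% of 17282 genes. Gsto2, Sult5a1, Ugt2a3, Ugt2b34, Ugt2b5 and Ugt8a (15.8%) were lower in both, against 18%. These 6 were 75% of the 8 such members that fell in IRI vs Control and 75% of the 8 that fell in IPC+IRI vs Hemin, where the shares over all genes were 52.8% and 73.3%. Gstm5 was 33.3% of the 3 members that rose in each, where the shares over all genes were 58.7% and 77.5%. The members' overlap was thus near or below that of all genes, except among those that fell in IRI vs Control. With normexp the calls of Gsto2, Sult5a1, Ugt2a3 and Ugt2b5 were lost in both comparisons. In IPC+IRI vs Hemin the Gsto2 call was also lost without Hemin array 1, 3 or 4 or IPC+IRI array 2 or 3, and that of Sult5a1 without Hemin array 2, 3 or 4 or IPC+IRI array 1 or 4. The log2 of the summed leukocyte signal in IPC+IRI ranged from 2.781 to 4.371 and in Hemin from 0.186 to 1.277, and 4 of 10 proximal tubule markers fell.

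**Figure D3:**
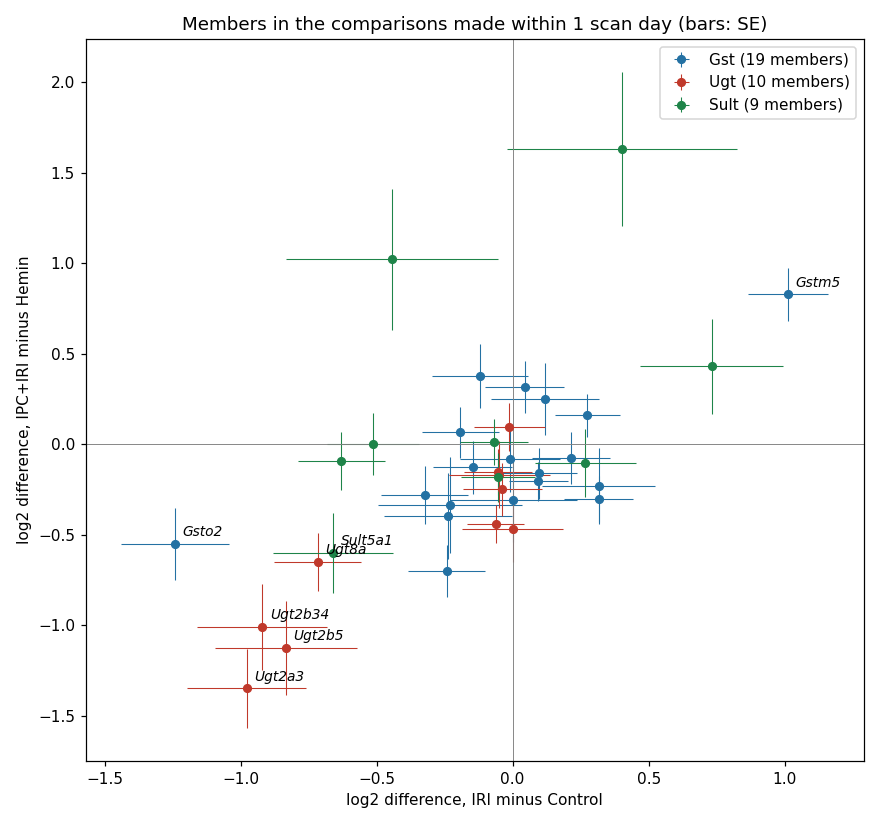
Log2 difference of each member tested in both comparisons made within 1 scan day, IRI minus Control on the horizontal axis and IPC+IRI minus Hemin on the vertical axis, with SE bars and family colours. Names mark the 7 members called in both: Gstm5 at upper right, and Gsto2, Sult5a1, Ugt2a3, Ugt2b34, Ugt2b5 and Ugt8a at lower left.

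IPC+IRI vs Control, which addressed preconditioned ischemia against the untouched kidney, gave the largest number of lower members. Of 38 tested, 6 rose and 15 fell (15.8% and 39.5%), against 22.2% and 33.8% of all genes, with a median of -0.234 for members and -0.11 for all genes. At 2-fold or more, 2 rose and 2 fell, against 7.67% and 14.6%. Gstm5 rose by 1.22 on the log2 scale (SE 0.15, adjusted p = 3.31e-06), a 2.34-fold rise. The alpha-class Gsta3 and Gsta4, which act on lipid peroxidation products, rose by 0.54 (adjusted p = 0.0155) and 0.69 (adjusted p = 0.00673), in both cases with overlapping arrays. The Gsta3 call was lost with the brightest probe (0.20, adjusted p = 0.239), with quantile normalization and without Control array 1. Sult2b1 was at least 2.11-fold higher (adjusted p = 0.00208), a bound equal to the fitted fold. However, it was tested through the IPC+IRI arrays alone, and with normexp its log2 difference was -0.05 (adjusted p = 0.862). Over the 37 members well above background in both groups 5 rose and 15 fell (13.5% and 40.5%), against 21.8% and 32.6% of such genes. Sult1b1, which sulfates thyroid hormones and phenols, rose by 0.38 (adjusted p = 0.0164), a call lost without IPC+IRI array 4, with normexp (0.09, adjusted p = 0.679) and in the deposited log2 matrix (adjusted p = 0.743), and Sult1c2 by 0.48 (adjusted p = 0.0167), a call lost with quantile normalization and without Control array 1 or IPC+IRI array 1.

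The falls in IPC+IRI vs Control took in 8 of 10 Ugt genes. Ugt2b34 was lower by -1.55 (SE 0.24, adjusted p = 3.6e-05), a 2.94-fold difference, and Ugt2a3 by -1.04 (SE 0.22, adjusted p = 0.000636), though Ugt2a3 was not called with normexp (-0.49, adjusted p = 0.0773) or without scaling (-0.58, adjusted p = 0.137). Ugt8a, Ugt2b38, Ugt3a1, Ugt2b37, Ugt3a2 and Ugt2b36 were lower by -0.82 to -0.61. Without scaling Ugt2b34 was the only Ugt gene called lower, and with normexp the Ugt2b36 call was lost as well as that of Ugt2a3. The mu-class genes Gstm4, Gstm6 and Gstm7 also fell, in the same group of arrays in which their relative Gstm5 rose. Gstm4 was at -0.41, -0.90, -0.41 and -0.60 in Control and -1.19, -1.60, -1.32 and -1.63 in IPC+IRI, without overlap (log2 difference -0.85, SE 0.14, adjusted p = 7.89e-05). Gstm7 changed by -0.91 (adjusted p = 4.08e-05) and Gstm6 by -0.89 (adjusted p = 0.00818), and the Gstm6 call was lost with normexp and with quantile normalization. Without scaling none of these 3 was called. Gsto2, Sult5a1, Gstz1 and Gstp1 made up the rest, and none of these 4 was called with normexp or without scaling, where Gstp1 and Gstz1 stood at 0.12 and 0.04. The Gstp1 call was also lost with the brightest probe and without IPC+IRI array 2, and in the deposited log2 matrix its difference was 0.41 (adjusted p = 0.53). In that matrix the Gsto2 call was lost too, as was that of Sult5a1 with quantile normalization. Of the 10 proximal tubule markers, 6 were lower in this comparison, with the log2 of their summed signal at 8.762 to 9.078 in IPC+IRI.

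The IPC+IRI vs IRI comparison asked what preconditioning changed in the ischemic kidney. Of 38 members, 6 rose and 11 fell (15.8% and 28.9%), against 26% and 17.9% of all genes tested. At 2-fold or more, 2 rose and 0 fell, against 7.13% and 4.44%. The largest rise was that of Sult1c2, at 2.81, 3.11, 3.01 and 2.97 in IRI and 4.31, 3.90, 4.15 and 3.97 in IPC+IRI. Its arrays did not overlap, and the log2 difference was 1.11 (SE 0.16, adjusted p = 4.68e-05), 2.15-fold. The unoperated Hemin arrays, scanned on the same day as IPC+IRI, were as high, with a mean of 4.17 against 4.08 in IPC+IRI. Gsta3 was at 4.02, 4.07, 3.87 and 3.72 in IRI and 4.70, 4.52, 4.38 and 4.71 in IPC+IRI, also without overlap (log2 difference 0.66, SE 0.18, adjusted p = 0.00608). The other rises were Gsto2 (0.61, adjusted p = 0.0187), Gsta4 (0.57, adjusted p = 0.0263), Sult1b1 (0.44, adjusted p = 0.00832) and the brain-type sulfotransferase Sult4a1 (1.07, adjusted p = 0.0323, with overlapping arrays). With normexp the Gsto2, Sult1b1 and Sult4a1 differences turned to -0.15, -0.05 and -0.21. The Gsto2 and Sult1b1 calls were lost in the deposited log2 matrix, and that of Gsto2 without IRI array 3. For Sult1b1 the unoperated Hemin arrays, scanned on the day of IPC+IRI, had a mean of -1.91 against -1.90 in IPC+IRI. The Sult4a1 call was also lost with quantile normalization and without IRI array 1 or 4 or IPC+IRI array 1, 3 or 4. That of Gsta4 was lost with the compared arrays fitted alone and without IRI array 2 or 3 or IPC+IRI array 1 or 4.

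The lower members in IPC+IRI vs IRI were 6 Ugt genes, Gstm3, Gstm4, Gstm7, Gstp1 and Gstz1. Ugt3a1 was at 5.75, 5.91, 6.06 and 5.72 in IRI and 5.36, 5.03, 5.12 and 5.19 in IPC+IRI, without overlap (log2 difference -0.69, SE 0.10, adjusted p = 7.09e-05). Ugt2b38 was at 5.15, 5.53, 5.37 and 5.22 in IRI and 4.15, 5.06, 4.63 and 4.22 in IPC+IRI, without overlap (log2 difference -0.80, SE 0.19, adjusted p = 0.00211). Ugt2b37 changed by -0.65 (adjusted p = 0.00157) and Ugt2b34 by -0.63 (adjusted p = 0.0388), and the Ugt2b34 call was lost in 10 of 17 alternative settings, 5 of which left out 1 array (IRI 2, 3 or 4, IPC+IRI 3 or 4). With unscaled arrays none of the 11 was called in this comparison, which crosses scan days. With normexp the calls of Gstm3, Gstz1, Ugt2b36, Ugt2b37 and Ugt3a2 were lost, and in the deposited log2 matrix those of Gstp1, Ugt2b36 and Ugt3a2. Among single arrays, leaving out IPC+IRI array 1 ended the Gstm3 and Ugt2b36 calls, and leaving out IRI array 2 or 3 that of Ugt2b36.

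Markers of blood and other cells also differed between IPC+IRI and IRI. Of 4 erythroid markers, the globin genes Hba-a1 (-1.71, adjusted p = 0.0146) and Hbb-b1 (-1.61, adjusted p = 0.0133) and the heme synthesis gene Alas2 (-1.60, adjusted p = 0.0175) were lower in IPC+IRI and Slc4a1 (1.06, adjusted p = 0.0169) was higher. The log2 of their summed signal ranged from 3.81 to 5.828 in IPC+IRI and from 6.251 to 6.564 in IRI. Of 8 leukocyte markers tested 2 were higher and 1 lower, and of 10 proximal tubule markers 2 were higher and 3 lower. Their part in the values of the conjugation enzymes was not tested.

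IRI+Hemin vs IRI addressed the effect of the drug before ischemia. Of 38 members tested, 6 rose and 10 fell (15.8% and 26.3%), against 25.8% and 18.4% of all genes. At 2-fold or more, 0 rose and 1 fell, against 7.34% and 5.12%. The rises were led by SULT1 enzymes, and 3 of 9 sulfotransferases tested rose while none fell (with normexp 1 fell). Sult1d1, which sulfates catecholamines and other amines, was at 5.16, 5.23, 5.11 and 4.98 in IRI and 5.92, 5.96, 6.05 and 5.84 in IRI+Hemin, without overlap (log2 difference 0.82, SE 0.14, adjusted p = 0.000141). Sult1a1, the main phenol sulfotransferase, was at 1.44, 1.27, 0.77 and 0.95 in IRI and 1.92, 1.91, 2.19 and 1.74 in IRI+Hemin, without overlap (log2 difference 0.83, SE 0.19, adjusted p = 0.00168). Sult1b1 was at -2.31, -2.13, -2.41 and -2.53 in IRI and -1.82, -1.35, -1.46 and -1.82 in IRI+Hemin, without overlap (log2 difference 0.73, SE 0.13, adjusted p = 0.000192). The first 2 of these rises passed the test in every alternative in which they were tested, and that of Sult1b1 was lost with normexp and in the deposited log2 matrix. Sult1b1 was also called higher than IRI in IPC+IRI, which had no Hemin, at a mean of -1.90 against -1.61 in IRI+Hemin. Both of these Sult1b1 comparisons cross scan days. Gstt2, a theta-class transferase, rose by 0.65 (SE 0.14, adjusted p = 0.00117), Gsta3 by 0.45 (adjusted p = 0.0483) and Gstm5 by 0.41 (adjusted p = 0.0324). The Gstm5 call was lost with quantile normalization (adjusted p = 0.088), with the compared arrays fitted alone (adjusted p = 0.0837), without the first or the second IRI array and without the second IRI+Hemin array. That of Gsta3 was lost in both of these settings, without the filter on dim genes, with the replicate block (adjusted p = 0.0682) and with any single array left out except IRI+Hemin array 2 or 4.

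Ugt2b36 showed the largest fall of any member in this comparison. It was at 4.52, 5.02, 4.89 and 4.59 in IRI and 3.25, 2.96, 2.92 and 3.54 in IRI+Hemin, and every IRI+Hemin array was below every other array of the series. The log2 difference was -1.59 (SE 0.18, adjusted p = 7.2e-06), a 3.001-fold fall that passed the test in every alternative run. The related Ugt2b37 was at 4.69, 5.11, 4.97 and 4.53 in IRI and 4.07, 3.83, 3.85 and 4.16 in IRI+Hemin, without overlap (log2 difference -0.84, SE 0.14, adjusted p = 0.0002). Gstz1, the zeta-class enzyme of tyrosine breakdown, was at 4.12, 4.40, 4.46 and 4.08 in IRI and 3.63, 3.46, 3.56 and 3.44 in IRI+Hemin, without overlap (log2 difference -0.74, SE 0.11, adjusted p = 5.09e-05). Ugt2b38 (-0.72), Gstm7 (-0.69), Ugt2b34 (-0.62), Ugt3a2 (-0.46), Gstp1 (-0.44), Gstm4 (-0.44) and Ugt3a1 (-0.40) completed the list. Without scaling 9 of the 10 falls were lost, and Ugt2b36 alone was called lower. With normexp the calls of Gstm4, Ugt3a1 and Ugt3a2 were lost, and in the deposited log2 matrix those of Gstm4, Gstp1 and Ugt2b34. The Gstm4 call was also lost without IRI+Hemin array 3, that of Gstp1 with the compared arrays fitted alone, and that of Ugt2b34 with the replicate block (adjusted p = 0.0654), without the filter on dim genes and with any single array left out except IRI array 1 or IRI+Hemin array 1.

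Liver markers moved in part with the same arrays. The log2 of the summed signal of 5 liver markers ranged from 1.981 to 2.974 in IRI+Hemin and from 1.571 to 2.136 in IRI, with Apob (1.68) and Apoa1 (1.05, well above background on 1 of 4 IRI arrays) called higher. Alb (-0.29), Ttr (-0.88, adjusted p = 0.0634) and Fga (0.81, adjusted p = 0.142) did not pass the test. That of the proximal tubule markers ranged from 8.685 to 9.232 in IRI+Hemin, with 2 of 10 markers higher and 2 lower. The part of liver or tubule RNA in these values was not tested.

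The interaction of Hemin and IRI, which asks whether the drug changed expression differently with and without ischemia, was called for 1 member higher and 2 lower of 40, against 5.72% and 1.94% of 19064 genes. At least 2-fold were 0 of the higher and 1 of the lower, against 4.26% and 0.85%. For Ugt2b36 it was -1.14 (SE 0.26, adjusted p = 0.0124): Hemin alone gave a log2 difference of -0.44 (adjusted p = 0.0688) and Hemin before IRI gave -1.59. For Sult1d1 it was 0.73 (SE 0.19, adjusted p = 0.0268), with Hemin alone at 0.10 (adjusted p = 0.614). For Gstz1 it was -0.53 (SE 0.15, adjusted p = 0.0438), a call lost in 17 of 24 alternative settings, 12 of which left out 1 array and included every single Hemin array. The Sult1d1 interaction was lost without Hemin array 2 or Hemin array 3, with normexp (0.78, adjusted p = 0.101) and without scaling (0.53, adjusted p = 0.538), and that of Ugt2b36 with normexp (-1.19, adjusted p = 0.059). The 4 groups of this contrast were scanned on 3 days.

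**Figure D4:**
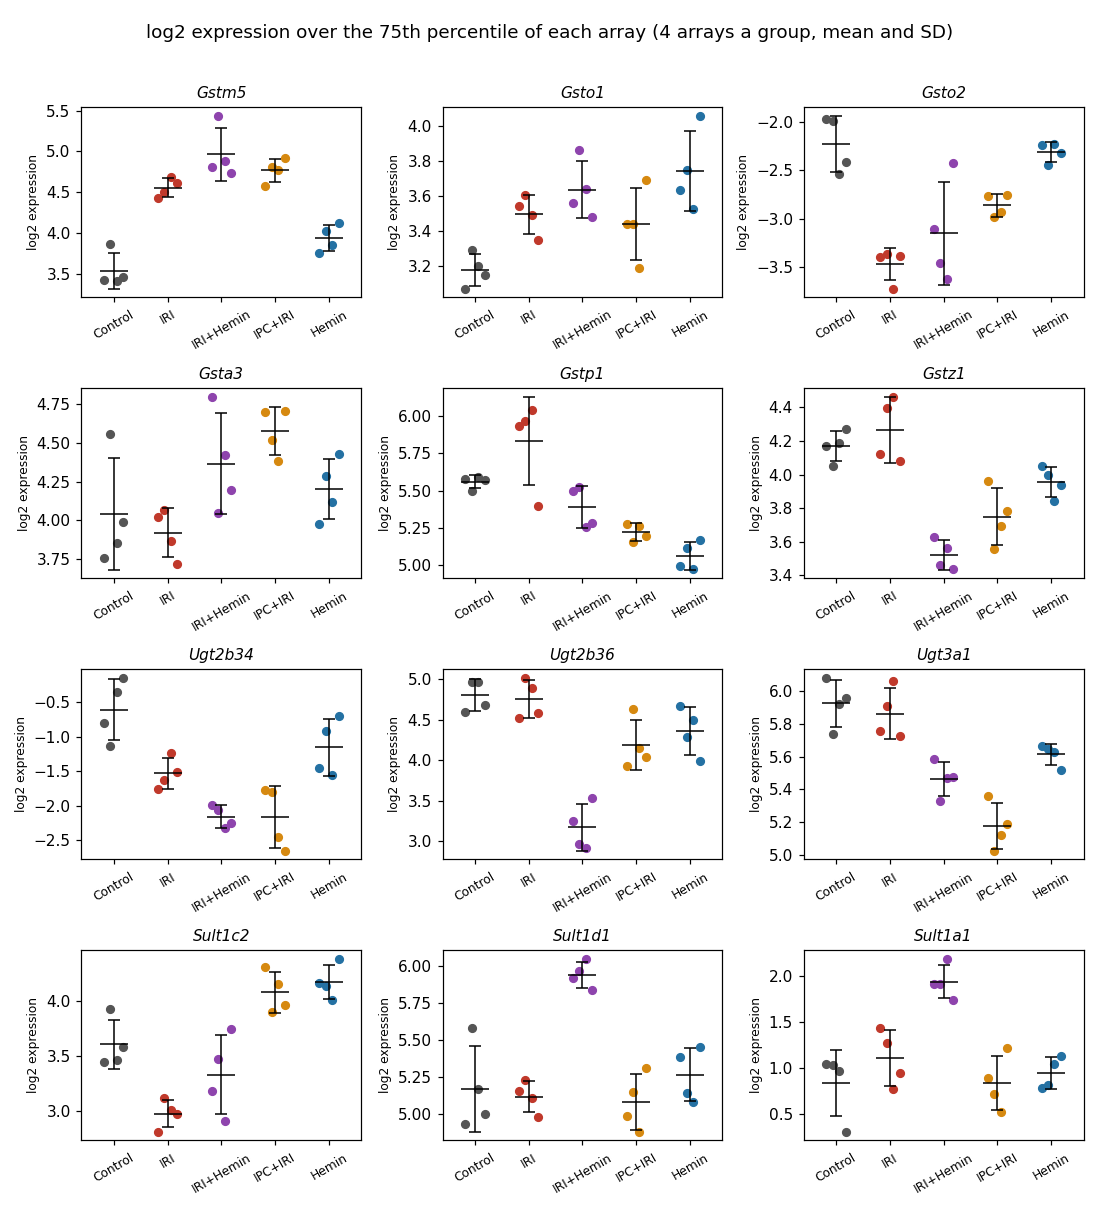
Log2 expression over the 75th percentile of each array for 12 members, with 1 point per array in 5 groups of 4 and bars for mean and SD. The IRI+Hemin arrays of Ugt2b36 lie between 2.92 and 3.54, below all others, and those of Sult1d1 between 5.84 and 6.05, above all others.

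Hemin vs Control, the effect of the drug in the unoperated kidney, gave 4 members higher and 5 lower of 40 (10% and 12.5%), against 18.3% and 17.6% of all genes, and 0 and 0 of these changes reached 2-fold, against 2.17% and 6.01%. Gstm7 fell the most: it was at -1.60, -1.75, -1.80 and -1.33 in Control and -2.68, -2.38, -2.83 and -2.49 in Hemin, without overlap (log2 difference -0.98, SE 0.14, adjusted p = 0.000143), a call lost without scaling (-0.41, adjusted p = 0.147). Gstp1, the pi-class enzyme, was at 5.58, 5.50, 5.59 and 5.57 in Control and 4.998, 5.113, 4.975 and 5.168 in Hemin, without overlap (log2 difference -0.50, SE 0.12, adjusted p = 0.00413). Ugt3a2 (-0.48, adjusted p = 0.00701), Ugt2b37 (-0.44, adjusted p = 0.0253) and Ugt3a1 (-0.31, adjusted p = 0.0274) also fell. For Gstp1 and these 3 Ugt genes the sign turned with unscaled arrays, with log2 differences of 0.07, 0.09, 0.13 and 0.26 in the same order, and none of the 4 was called with normexp. The Gstp1, Ugt2b37 and Ugt3a2 calls were also lost in the deposited log2 matrix. Gsto1 was at 3.64, 3.75, 3.53 and 4.06 in Hemin, above all Control arrays (log2 difference 0.56, SE 0.13, adjusted p = 0.00269). Sult1c2 rose by 0.57 (adjusted p = 0.0104), Gstm5 by 0.40 (adjusted p = 0.0428) and Sult1b1 by 0.37 (adjusted p = 0.0307). The Sult1b1 call was lost with normexp (0.01, adjusted p = 0.981) and in the deposited log2 matrix (0.22, adjusted p = 0.621), and that of Gstm5 with normexp (adjusted p = 0.0603), with quantile normalization (adjusted p = 0.206) and without the filter on dim genes. The Gstm5 call was lost with any single array left out except Control array 2 and Hemin array 1. The Sult1b1 call was lost with any left out except Control array 2 and Hemin array 3, that of Ugt2b37 without Control array 3, Hemin array 2 or Hemin array 4, and that of Ugt3a1 with any left out except Control array 2, Hemin array 1 and Hemin array 2.

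Gstm7, Gstp1, Ugt2b37, Ugt3a1 and Ugt3a2 were lower in Hemin than in Control, in IPC+IRI than in either Control or IRI, and in IRI+Hemin than in IRI. All of these contrasts set a later scan day against the day of Control and IRI and share arrays. Within a scan day Gstm7 changed by -0.19 (95% interval -0.50 to 0.11) in IRI vs Control and by 0.06 (-0.24 to 0.37) in IPC+IRI vs Hemin. Ugt3a2 changed by -0.05 and -0.15 in the same comparisons, and neither value passed the test. Ugt3a1 was the exception, at -0.44 (adjusted p = 0.00324) in IPC+IRI vs Hemin, a call lost with normexp (-0.54, adjusted p = 0.0758) and without scaling (-0.55, adjusted p = 0.0955). Sult1b1 went the other way and was called higher in each of the contrasts above that cross days, by 0.365 to 0.734. Within a scan day it changed by -0.07 in IRI vs Control, and its IPC+IRI and Hemin means were -1.90 and -1.91. Neither of these comparisons was called for Sult1b1. For all of these members scan day and group cannot be told apart in the comparisons that cross days.

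Several members passed no test. Gsta1, Gsta2, Gstm1, Gstm2, Gstk1, Gstt1, Gstt3 and Ugt1a6b were called in no comparison. Gstm1, a mu-class gene, had a log2 difference of 0.21 in IRI vs Control and of -0.04 in IPC+IRI vs Control. Gsta1 missed the threshold in Hemin vs Control at 0.60 (SE 0.23, adjusted p = 0.0521), where the fourth Hemin array read 6.08 and the others 5.14 to 5.29. The bright probe of Ugt1a6b lies at chr1:90115472-90115531, beyond the Ugt1a1 probe in the direction of transcription, and Ugt1a transcripts share their last exons, so it cannot separate the Ugt1a genes. The 2 probes of Gstm1 disagreed in Hemin vs Control (0.09 and -0.65), as did those of Gsta3 (0.45 and -0.11). For Ugt8a, 2 probes gave -1.49 and 0.15 in that comparison, whereas they gave -0.69 and -0.71 in IRI vs Control, and the remaining probe was at background.

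Promoters were compared because several members were called in the same comparisons. All 46 members matched RefSeq by symbol, and 41 had a promoter window from 250 bases before to 50 after the start (GRCm38.p6). The core of the antioxidant response element, TGACNNNGC on either strand, was present in 3 of 41 members (7.32%) and in 12.4% of 32851 promoters. These 3 are shown with the core in capitals.
Gsta3 (chr1:21240444-21240492, plus strand, core 121 bases before the start): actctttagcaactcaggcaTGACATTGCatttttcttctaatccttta
Gstm5 (chr3:107895792-107895840, plus strand, core 42 bases before the start): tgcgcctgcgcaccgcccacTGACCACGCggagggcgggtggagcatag
Gstm7 (chr3:107931715-107931763, minus strand, core 129 bases before the start): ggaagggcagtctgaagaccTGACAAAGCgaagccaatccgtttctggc
Gstm5 was higher in both ischemic comparisons within a scan day, Gsta3 was higher in IPC+IRI vs IRI, and Gstm7 was lower in Hemin vs Control. The hexamer GTTAAT, part of the site of the kidney and liver factor HNF1, was present on either strand in 7 of 41 members (17.1%) and in 7.1% of all promoters. Its holders were Gsta3, Sult1a1, Sult1d1, Ugt1a1, Ugt1a9, Ugt2a3 and Ugt3a1. A match describes letters in this window and not a bound site.

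Genes that supply and spend glutathione were read from a fixed list of 10, of which 9 were tested. In IRI vs Control, 3 rose and 1 fell, where 16.4% of all genes rose and 35% fell. Chac1, which degrades glutathione inside cells, rose by 5.34 on the log2 scale (SE 0.31, adjusted p = 8.87e-10), and Gclc, the catalytic subunit of the rate-limiting synthetic enzyme, by 0.69 (adjusted p = 0.0252). In IPC+IRI vs Hemin, Chac1 (3.88) and Gclc (1.12) were the 2 that rose, where 12.6% of all genes did. Its partner subunit Gclm fell by 1.26 and the reductase Gsr fell by 1.32 in IRI+Hemin vs IRI, where Gclc rose by 0.90. With Hemin alone Gsr changed by -0.93 (adjusted p = 0.00128) and Gss, the other synthetic enzyme, by 0.64 (adjusted p = 0.00425).

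The steps that turn glutathione conjugates into mercapturates gave 1 higher and 1 lower of 12 tested in IRI vs Control, against 16.4% and 35% of all genes, and 4 higher and 5 lower in IRI+Hemin vs IRI, against 25.8% and 18.4%. There the gamma-glutamyl transferases Ggt5 (1.26, adjusted p = 1.35e-05) and Ggt6 (1.15, adjusted p = 7.76e-05) rose, and the peptidase Anpep (-0.90) and the deacylase Acy3 (-0.73) fell. In IPC+IRI, without Hemin, mean log2 expression was 3.02 for Anpep and 6.94 for Acy3, against 3.07 and 7.09 in IRI+Hemin. For Ggt5 and Ggt6 it was -2.10 and 2.17, against -1.06 and 2.37. Ggt5 also had an interaction of Hemin and IRI of 1.20 (adjusted p = 0.00317). Among microsomal and other glutathione-dependent proteins, 3 of 8 tested rose in IRI vs Control and none fell, against the same 16.4% and 35%: Clic4 (1.04), the prostaglandin E synthase Ptges (0.82) and Clic1 (0.78). Mgst1, the microsomal transferase, rose by 0.99 (adjusted p = 0.000797) in IRI+Hemin vs IRI.

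For glucuronidation, the donor-making enzyme Ugdh rose by 0.98 (SE 0.16, adjusted p = 6.07e-05) in IRI vs Control, while Gulo, which makes ascorbate from glucuronate, fell by 0.81 (adjusted p = 0.00905); these were the only 2 called of 8, where 16.4% of all genes rose and 35% fell. In IPC+IRI vs Control 2 rose and 4 fell, against 22.2% and 33.8% of all genes. Slc35d1, which carries UDP-glucuronate into the endoplasmic reticulum, changed by -0.92 (adjusted p = 0.000494) in IRI+Hemin vs IRI, and Gusb, the hydrolase, by -0.52 (adjusted p = 0.00191). In IPC+IRI, which had no Hemin, mean log2 expression was -0.87 for Slc35d1 and 0.55 for Gusb, near the -0.94 and 0.53 of IRI+Hemin. For sulfation, 1 of 13 genes rose and 5 fell in IRI vs Control, against 16.4% and 35% of all genes, among them the sulfate carriers Slc26a1 (-0.85, adjusted p = 0.000776) and Slc13a1 (-0.57, adjusted p = 0.00784). Slc13a1 rose by 1.59 (SE 0.17, adjusted p = 2.91e-06) in IRI+Hemin vs IRI, and Papss1, which makes PAPS, changed by -1.08 (adjusted p = 4.27e-05). Both had an interaction of Hemin and IRI, of 1.13 (adjusted p = 0.007) and -0.98 (adjusted p = 0.0108).

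Of 9 carriers that export conjugates or take up organic anions, 2 rose in IRI vs Control, Abcc2 (0.49, adjusted p = 0.00163) and Abcc1 (0.32, adjusted p = 0.044), and none fell, against 16.4% and 35% of all genes. Slc22a8, the organic anion transporter of the proximal tubule, fell in Hemin vs Control by 1.59 (SE 0.20, adjusted p = 6.73e-05) and in IRI+Hemin vs IRI by 1.36 (adjusted p = 6.04e-05). Both of these comparisons cross scan days. Preconditioned ischemic kidneys, which had no Hemin, were as low for Slc22a8, with a mean log2 expression of 1.25. The Hemin arrays of the same scan day averaged 1.40, and the IRI+Hemin arrays 1.53. Means on the scan day of Control and IRI were 2.99 and 2.88. The part of the drug in these falls was not tested.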

How the data were processed

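Total kidney RNA of 5 groups of 4 was hybridised to 1-colour Agilent arrays. The authors deposited scanner files whose processed signal is an intensity, background-subtracted by Feature Extraction 9.5.3.1, and a matrix whose log2 values are, per the file contents, the log2 of that deposited signal (100% within 0.001 of it), with 18.1% of values blank, no scaling between arrays and no centring of genes.

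Groups and replicate numbers were taken from the sample labels. Control spots were left out, signals of the probes of a gene were averaged on the linear scale and divided by the 75th percentile of the array, and log2 was taken. One fit of limma 3.58.1 (R 4.3.3, with the package data.table in version 1.17.8) to all 20 arrays gave 5 group means (15 residual degrees of freedom). The Benjamini-Hochberg adjustment ran over all genes tested in a comparison. Genes with more than 1 missing value, or with fewer than 3 arrays well above background in both groups, were not tested. A bound ("at least") set the bright group's mean against the dim group's, each dim array taken at no less than the lowest signal well above background. It does not cover the spread between arrays, and it is the fitted fold where no dim array lay below that signal.

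Members named with values in every array were up to 5 rises and 5 falls per comparison without overlap between groups and well above background in both, plus the brightest of each class; other members are counted, and those named besides them were chosen after their values were seen. The members, pathway lists and marker lists were chosen with earlier results of these data known. The fit was tested on simulated data. Of genes changed 2-fold there, 51% (interaction) to 83% (IRI+Hemin vs IRI) were recovered. The share of false calls was 4.19% (IRI+Hemin vs IRI) to 8.76% (IPC+IRI vs Hemin). With 4 arrays against 4, an exact permutation test could not go below 0.0286. The number of arrays limits the precision. A random block for slide could not be fitted. Alternatives were normexp background correction (offset 50), no scaling, quantile normalization, the deposited matrix, the brightest probe, filters on dim genes, the compared arrays alone, a replicate block, a 2-fold cutoff and leaving out each array.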

Additional observations from a re-analysis of the deposited data

Results flagged for a closer look

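Of 149 groups of 4 arrays over the 32 members named by the rule, 8 held an array far from the other 3. Chance alone gives about 1 in 20 groups, so this number is near that of chance. The fourth Hemin array stood high for Gsta1 (log2 expression 6.08, others 5.144 to 5.289) and for Ugt1a6b (5.479, others 5.232 to 5.268). The fourth IRI array stood low for Gstm3 (5.922, others 6.742 to 6.818) and Gstp1 (5.398, others 5.93 to 6.038). The second Control array stood high for Gstk1 (4.007, others 3.648 to 3.675) and Gstm5 (3.874, others 3.415 to 3.469), and the fourth Control array stood low for Sult1a1 (0.306, others 0.972 to 1.045). The third IRI array stood low for Gsto2 (-3.722, others -3.401 to -3.369).

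The effect of Hemin differed between ischemic and unoperated kidneys, by the interaction term of the fit, for Ugt2b36 (-1.142 on the log2 scale), Sult1d1 (0.727) and Gstz1 (-0.527). None of the 3 was called with normexp background correction, and the Gstz1 call was lost in 17 of 24 alternative settings. The groups of this contrast lay on separate slides, which cannot be told apart from the groups, and were scanned on 3 days.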

How the results depend on the processing

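Counts of members higher and lower moved by over 1.5 times in the following settings, in which all other counts moved by less. With normexp they were 1 and 3 in IRI vs Control, 2 and 2 in Hemin vs Control, 1 and 3 in IPC+IRI vs Hemin and 0 and 0 for the interaction, and the lower counts were 8 in IPC+IRI vs Control and 7 in IPC+IRI vs IRI. Without scaling they were 1 and 3 in IRI vs Control, 11 and 1 in IPC+IRI vs Control, 12 and 1 in IRI+Hemin vs IRI, 19 and 0 in Hemin vs Control and 0 and 1 for the interaction, with 0 lower in IPC+IRI vs IRI. With quantile normalization 5 fell in IRI vs Control and 8 in Hemin vs Control. In the deposited matrix 1 rose in IRI vs Control, 5 fell in IPC+IRI vs IRI, 5 fell in IRI+Hemin vs IRI, 2 rose and 1 fell in Hemin vs Control, and the interaction gave 0 and 0. Without a filter on dim genes, and with the replicate block, the interaction gave 1 lower. With the compared arrays alone, Hemin vs Control gave 7 and 9, and the interaction 2 higher. At 2-fold or more the counts were 1 and 1 (IRI vs Control), 2 and 2 (IPC+IRI vs Control), 2 and 0 (IPC+IRI vs IRI), 0 and 1 (IRI+Hemin vs IRI), 0 and 0 (Hemin vs Control) and 0 and 1 (interaction), with 4 lower in IPC+IRI vs Hemin. Counts over all genes moved too. Without scaling, 1978 were higher and 3396 lower of 17719 in IRI vs Control, and 6216 and 2056 of 18352 in IPC+IRI vs Control. They were 6548 and 620 of 17835 in IRI+Hemin vs IRI and 8834 and 491 of 18579 in Hemin vs Control. With normexp they were 1711 and 1491 in IRI vs Control, 1922 and 1713 in Hemin vs Control and 1315 and 1517 of 18544 in IPC+IRI vs Hemin. The cause of these shifts was not tested.

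Leaving out 1 array gave 1 to 5 higher and 7 to 9 lower in IRI vs Control, 4 to 7 and 15 to 17 in IPC+IRI vs Control, 4 to 6 and 9 to 11 in IPC+IRI vs IRI, 4 to 7 and 8 to 10 in IRI+Hemin vs IRI, 2 to 7 and 3 to 6 in Hemin vs Control, 2 to 3 and 7 to 9 in IPC+IRI vs Hemin, and 0 to 2 and 1 to 2 for the interaction.

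Of 50 named values, 2 reversed with normexp, Gsto2 (-0.149) and Sult1b1 (-0.048) in IPC+IRI vs IRI, and 4 reversed without scaling in Hemin vs Control, Gstp1 (0.072), Ugt2b37 (0.128), Ugt3a1 (0.257) and Ugt3a2 (0.09). Their calls were lost in 19 cases with normexp, 20 without scaling, 10 of 39 in the deposited matrix and 2 with the replicate block, though replicate numbers did not pair the samples (deviations of same-numbered arrays correlated at -0.385 to 0.215). All 50 kept theirs with the brightest probe. Dim probes such as Ugt2a3, Ugt2b5 and Gsto2 limit what the arrays can show.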

Other observations

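Markers of cells other than proximal tubule also differed between the groups. The log2 of the summed signal of 5 adrenal cortex markers, set mostly by the brightest of them, ranged from -0.125 to 0.093 in Control, from -1.297 to -1.036 in IRI and from -0.977 to -0.521 in Hemin, with Mc2r and Hsd3b1 lower than Control in both and Star higher by 0.87 (adjusted p = 0.00774) in IRI, though Star was well above background on 1 of 4 Control arrays. That of 5 collecting duct markers ranged from 4.828 to 5.286 in Control and from 5.136 to 5.638 in IRI, with the water channel gene Aqp2 higher by 1.21 (adjusted p = 0.00263) and the vasopressin receptor gene Avpr2 changed by -1.70 (adjusted p = 7.02e-05). For 5 thick limb and distal tubule markers this quantity overlapped between Control (7.86 to 8.211) and IRI (7.783 to 8.155). For the 4 erythroid markers it ranged from 5.078 to 7.123 in Control, and 1 Control array stood at 4.51 for the 5 adipocyte markers, whose median in that group was -1.473.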
